A study of Mus musculus with 13 samples.

Results

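The genes described here encode FGF ligands, their receptors and the feedback genes that ERK signalling switches on in mouse embryonic stem cells (mESCs). The set holds 10 genes, matched by symbol in the count tables of both replicates: the ligands Fgf4, Fgf8, Fgf15 and Fgf17, the receptors Fgfr1 and Fgfr2, and the feedback genes Spry2, Spry4, Dusp6 and Etv4. All 10 were found among the 24421 genes counted and were among the 20044 tested. RNA came from clone A2 of F1-2.1 cells, a female mESC line from a CAST/Ei x 129/Sv/Jae cross, which carried a Tet-on transgene for CTCF S224E with a 3xFLAG tag. CTCF is a DNA-binding architectural protein, and in S224E a glutamate stands in place of a serine, as a mimic of its phosphorylation. The +dox group was grown for 6 days with 1 μg/mL doxycycline (dox) and the −dox group for the same time without it. Each group holds 2 libraries, described in the methods as biological replicates. Both groups kept their endogenous wild-type CTCF, came from the same clone and, per the growth protocol, were grown over irradiated mouse embryonic fibroblast feeders in medium with LIF and serum. Neither dox alone nor wild-type CTCF as the transgene had an RNA library among those analysed, so effects of dox and of S224E cannot be told apart.

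FGF ligands bind receptor tyrosine kinases, which act through Ras, Raf and MEK to activate the kinase ERK. In mESCs, autocrine FGF4 is known to drive ERK activity and to prime the cells for lineage commitment, while LIF supports self-renewal. ERK output is read from genes that it induces, some of which restrain the pathway in turn: Sprouty proteins act on the receptor-to-Raf steps, DUSP6 dephosphorylates ERK, and ETV4 is an ETS transcription factor.

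The libraries held between 22899107 and 30206085 counted reads. Levels are given as CPM, counts scaled to a common library size (1 CPM is 1 read in 1e+06) after TMM normalization. A gene was called DE at an adjusted p-value under 0.01 in edgeR's quasi-likelihood test, with adjustment over all genes tested. Ctcf, whose count can hold reads of the transgene, averaged 328.2 CPM with dox and 299.8 CPM without it (log2 fold change 0.13, SE 0.09, adjusted p = 0.475). The 14 pluripotency markers summed to 7409 and 8334 CPM with dox and to 6715 and 7114 CPM without it, and Pou5f1 lay between 949.3 and 1254 CPM in the 4 libraries, so the defining mESC markers were present. None of these 14 was called. The 15 fibroblast markers, which could come from the feeders, summed to 1102 and 468.3 CPM in the +dox libraries (replicates 1 and 2) and to 399.9 and 401.7 CPM in the −dox libraries. Replicate 1 with dox therefore stood furthest apart in these genes, but +dox replicate 2 was also raised. In 11 of the 15 both +dox libraries were above both −dox libraries (73.3%, against 23.3% of all genes tested). The median log2 difference was 1.78 within replicate 1 and 0.44 within replicate 2. The median log2 fold change of the 15 was 1.35, and 0 of 15 were called by edgeR or DESeq2. In edgeR 11 had an unadjusted p-value under 0.05, and none was at 0 reads in any library. For each of the 10 genes whose log2 fold change moved by over 1.5 times without +dox replicate 1, the value without it is given. Leaving it out does not remove the rise in +dox replicate 2.

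Across the set, 1 gene was called lower with dox, Fgf8, and 0 were called higher. Among all genes tested 0.519% were called lower and 0.0798% higher. DESeq2 also called 1 of the 10, again Fgf8, against 2.71% of the genes to which it gave an adjusted p-value. At an unadjusted p-value under 0.05 in edgeR, Fgf8 was lower and 3 others, Fgf4, Spry4 and Etv4, were higher. This makes 40% of the set, against 17.8% of all genes and 23.3% of those averaging 1 CPM or more, as all 10 did. The same 4 genes were those whose +dox and −dox libraries did not overlap. Over all genes 23.3% did not overlap in the higher direction and 23.7% in the lower, so the 3 higher genes of 10 lay near that background. The median log2 fold change of the 10 was 0.13, with 6 positive and 4 negative, and that of all genes tested was 0.01.

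**Figure D1:**
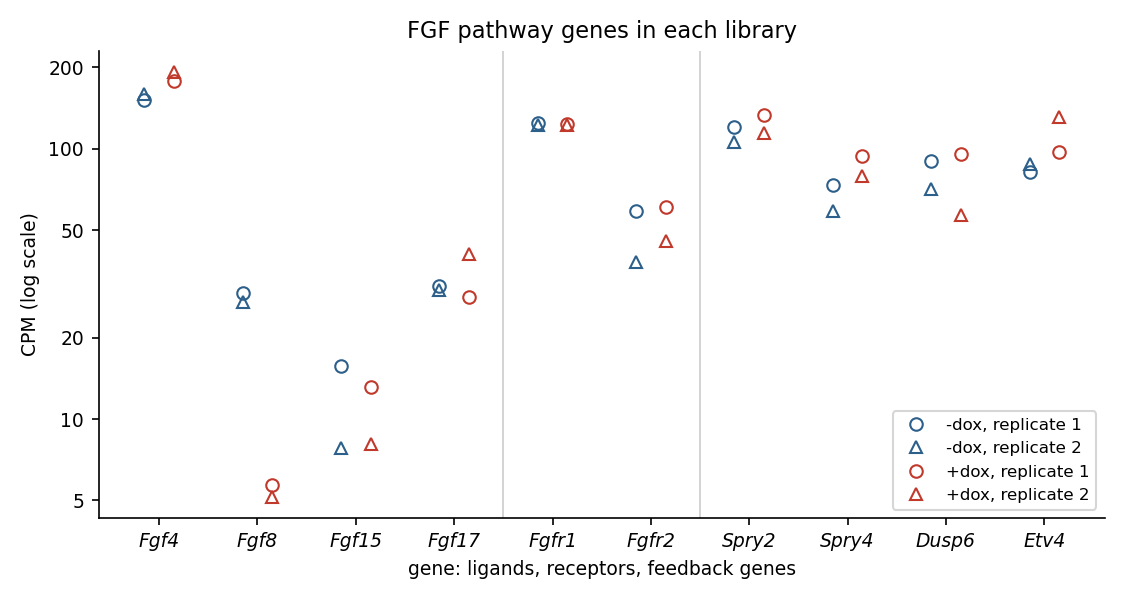
Levels of the 10 genes in CPM (log axis) in each of the 4 libraries, with −dox in blue, +dox in red, circles for replicate 1 and triangles for replicate 2. For Fgf8 both red points lie far below both blue points (5.69 and 5.17 against 29.2 and 27.1 CPM), while for Fgf15, Fgf17, Fgfr1, Fgfr2, Spry2 and Dusp6 the colours overlap.

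Fgf8 encodes a secreted FGF that is expressed in the primitive streak and drives mesoderm and axis formation in the embryo. It lay at 5.69 and 5.17 CPM in +dox replicates 1 and 2 and at 29.2 and 27.1 CPM in −dox replicates 1 and 2. Both +dox libraries were low, both −dox libraries were high, and the gap between the groups was much wider than the distance within either. The mean fell from 28.2 ± 1.51 to 5.43 ± 0.366 CPM (SD, n = 2 each), a 5.19-fold lower level with dox. The log2 fold change was −2.38 (SE 0.18, 95% interval −2.76 to −1.99, edgeR adjusted p = 3.53e-05), with −2.35 within replicate 1 and −2.37 within replicate 2. Behind these values stood 128 and 118 reads with dox and 893 and 680 without. By p-value Fgf8 ranked 5 among the 20044 genes, and by size of decrease it ranked 17 among the 13911 that averaged 1 CPM or more. The gene lies on the minus strand of chr19:45811288-45817374 (mm9), and its transcript has 1119 exon bases.

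The call on Fgf8 held in some settings and not in others. Its adjusted p-value was 8.64e-26 in DESeq2, and in edgeR it was 9.74e-24 without +dox replicate 1 and 8.71e-22 without +dox replicate 2. With edgeR's adjusted deviances the adjusted p-value was 0.0273, and without −dox replicate 1 or −dox replicate 2 it was 0.550 or 0.670, and under these 3 settings edgeR called none of the genes tested. The log2 fold change itself stayed between −2.45 and −2.31 over every alternative tried. Without +dox replicate 1, the library highest in fibroblast markers, it was −2.45.

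Markers of the primitive streak, a tissue that expresses Fgf8, moved in the same direction. Of 12 such markers, 6 were called lower with dox (T, Mixl1, Eomes, Lhx1, Foxa2 and Cer1) and 0 higher. The other 6 were Gsc, Wnt3, Mesp1, Evx1 and Fst, with fold changes below 0, and Nodal, with one above 0. DESeq2 called 7 of the 12 lower, adding Gsc (log2 fold change −1.26, DESeq2 adjusted p = 0.00123, edgeR adjusted p = 0.0131). The 12 summed to 169.9 and 163.8 CPM with dox and to 263.0 and 290.5 CPM without it, and their median log2 fold change was −1.49. Nodal, the most abundant of them, made up most of the +dox sums but less than the other markers together in the −dox sums. It lay at 123.8 and 124.5 CPM with dox and at 112.8 and 106.8 CPM without it (log2 fold change 0.18, edgeR adjusted p = 0.374). T, the transcription factor brachyury, lay at 5.73 and 7.18 CPM with dox and at 46.3 and 66.7 CPM without. No marker of this list was at 0 reads in any library. The part of these cells in the level of Fgf8 was not tested, and in bulk RNA fewer cells of a type and less RNA per cell cannot be told apart. Of the 8 primitive endoderm markers 3 were called lower (Gata6, Sox17 and Foxq1), while 4 of the 8 had fold changes above 0 (Lama1, Dab2, Sox7 and Pdgfra), none of them called. The remaining marker, Gata4 (log2 fold change −1.06), was called by DESeq2 (adjusted p = 0.00373) but not by edgeR (adjusted p = 0.0197). Of the 6 neural markers 1 was called higher (Pax6), with 5 fold changes above 0 and 1 below it (Hes5, −1.18, edgeR adjusted p = 0.160).

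Fgf4, the ligand that mESCs make in largest amount, did not follow Fgf8. Its level was 177.4 and 192.1 CPM with dox and 151.8 and 159.7 CPM without it. Both +dox libraries were above both −dox libraries, but the step was small. The means were 184.7 ± 10.4 and 155.8 ± 5.60 CPM (SD, n = 2 each), and the log2 fold change of 0.25 (SE 0.09, 95% interval 0.04 to 0.45) did not pass the test (edgeR adjusted p = 0.182). DESeq2 gave an adjusted p-value of 0.171. Fgf4 lies on the plus strand of chr7:152047291-152051148 (mm9).

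Fgf15, the mouse counterpart of human FGF19 and known for its endocrine role in bile acid control, lay at 13.2 and 8.10 CPM with dox and at 15.6 and 7.81 CPM without it. The libraries separated by replicate number rather than by dox, with replicate 1 the higher in both groups. The log2 fold change was −0.15 (SE 0.31, 95% interval −0.81 to 0.52, edgeR adjusted p = 0.838), so the interval holds changes of either sign. Without +dox replicate 1 it was −0.54 (adjusted p = 0.147). Fgf15 shares 478 exon bases with the antisense gene Gm17685 in the GENCODE annotation, and whether the counting used strand is not given in the sources used here, so its count is uncertain.

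Fgf17, a close relative of Fgf8 in sequence and receptor use, had 28.4 and 40.9 CPM with dox and 31.0 and 30.0 CPM without it. The −dox libraries lay between the +dox ones. Its log2 fold change was 0.18 (SE 0.17, 95% interval −0.18 to 0.55, edgeR adjusted p = 0.640), and the replicates differed in sign, at −0.13 and 0.45. Without +dox replicate 1 it was 0.42 (adjusted p = 0.0877). The 95% intervals of Fgf8 and Fgf17 do not meet, although the difference between the genes was not tested.

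Division by exon length allows the levels of the 4 ligands to be compared with each other. In CPM per kb, Fgf8 lay at 5.08 and 4.62 with dox and at 26.1 and 24.2 without it. Fgf4 on the same scale lay at 58.6 and 63.5 with dox and at 50.2 and 52.8 without. The level of Fgf4 was thus 11.5 and 13.7 times that of Fgf8 in the +dox libraries and 1.92 and 2.18 times in the −dox libraries. Of the summed CPM per kb of the 4 ligands, Fgf8 made up 25.3% and 24.4% without dox and 5.78% and 4.76% with it, whereas Fgf4 made up 48.5% and 53.2% without dox and 66.7% and 65.5% with it. Without dox the order by mean CPM per kb was Fgf4 (51.5), Fgf8 (25.2), Fgf17 (18.2) and Fgf15 (6.51), and no neighbours in that order overlapped. With dox Fgf8 (4.85) came last, below Fgf15 (5.91), and these 2 genes overlapped between libraries. These shares leave out other ligands, of which Fgf5 lay at 14.8 and 14.1 CPM per kb without dox and at 5.08 and 2.28 with it.

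**Figure D2:**
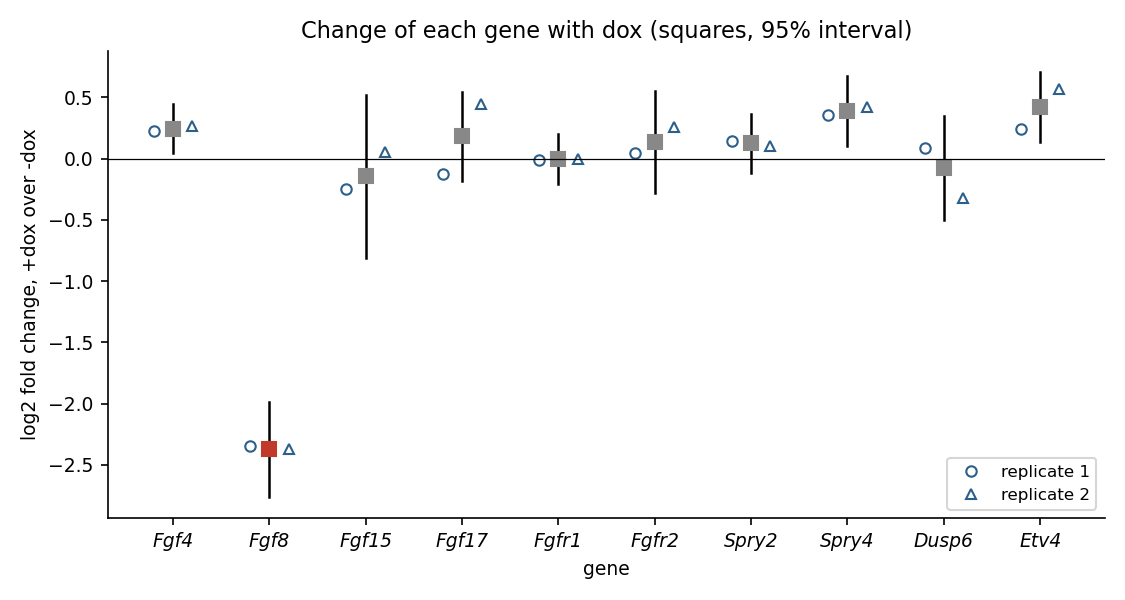
Log2 fold change with dox for each of the 10 genes, as the fitted value (square, red where called) with its 95% interval (line), and the difference within replicate 1 (circle) and replicate 2 (triangle). Fgf8 stands at −2.38 with both replicates on it, and the other 9 genes lie between −0.15 and 0.42.

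The receptors showed no detectable change. Fgfr1, the main FGF receptor of the naive epiblast, had 123 and 122 CPM with dox and 124 and 122 CPM without it. All 4 libraries were within a few CPM of each other, and the groups overlapped. The log2 fold change was −0.0057 (SE 0.09, edgeR adjusted p = 0.978), with a 95% interval from −0.21 to 0.20, and without +dox replicate 1 it was −0.014. Fgfr2, which is expressed in primitive endoderm and trophoblast in the embryo, had 61.0 and 45.6 CPM with dox and 58.9 and 38.0 CPM without it. As with Fgf15, replicate 1 was above replicate 2 in both groups, and the +dox and −dox libraries overlapped. Its log2 fold change was 0.14 (SE 0.19, 95% interval −0.28 to 0.55, edgeR adjusted p = 0.739), and without +dox replicate 1 it was −0.09 (adjusted p = 0.824). Per kb, Fgfr1 was 2.09 and 2.77 times Fgfr2 with dox and 2.18 and 3.33 times without it. Both receptors have neighbours in GENCODE that share exon bases with them, 125 for Fgfr1 with the antisense gene Gm16159 and 314 for Fgfr2 with Ctbp2 on the same strand.

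Promoter sequences from RefSeq (GRCm38.p6, a later build than the mm9 of the counts) were matched for 4 of the 10 genes, Fgf4, Fgfr2, Spry2 and Dusp6. Fgf8, Fgf15, Fgf17, Fgfr1, Spry4 and Etv4 had no entry. ETV4 and other ETS factors bind DNA around a GGAA core, so the 250 bases before each start were searched for CGGAA on both strands. This string occurred in 8275 of 32851 promoters (25.2%), 3 times in that of Dusp6 and not in the other 3. Dusp6 and Spry2 are shown as feedback genes with and without CGGAA, 5′ to 3′ on the gene's strand, with matches in capitals (TTCCG is the match on the opposite strand). The shorter core GGAA was not searched for, and the Spry2 sequence also holds it, in lower case. Dusp6 is at chr10:99262981-99263230 on the plus strand and Spry2 at chr14:105896820-105897069 on the minus strand.
Dusp6: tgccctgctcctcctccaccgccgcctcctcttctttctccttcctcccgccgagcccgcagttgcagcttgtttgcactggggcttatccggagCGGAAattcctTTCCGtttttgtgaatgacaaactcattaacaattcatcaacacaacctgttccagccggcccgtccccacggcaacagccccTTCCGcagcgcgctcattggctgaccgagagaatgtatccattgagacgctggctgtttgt
Spry2: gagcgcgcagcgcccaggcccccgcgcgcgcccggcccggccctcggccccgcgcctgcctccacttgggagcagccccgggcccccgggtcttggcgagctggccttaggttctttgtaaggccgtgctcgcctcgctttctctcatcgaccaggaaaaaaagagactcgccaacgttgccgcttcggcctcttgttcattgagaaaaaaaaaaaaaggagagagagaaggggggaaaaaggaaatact
The core CCANNAGNNGGC of the CTCF motif, searched on both strands, occurred in 679 of the 32851 promoters (2.07%) and in none of the 4. A match in these windows is a string of letters, not a bound site.

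None of the 4 feedback genes was called. Dusp6, the ERK phosphatase, lay at 95.9 and 56.6 CPM with dox and at 90.1 and 70.7 CPM without it. The +dox libraries lay outside the −dox ones on both sides. The log2 fold change was −0.08 (SE 0.20, 95% interval −0.50 to 0.35, edgeR adjusted p = 0.868), at 0.09 within replicate 1 and −0.32 within replicate 2. Without +dox replicate 1 it became −0.51 (adjusted p = 0.00974), and without +dox replicate 2 it became 0.25 (adjusted p = 0.335), so its direction depended on which library was kept.

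Spry2 and Spry4 encode Sprouty proteins. Spry2 had 132.7 and 113.9 CPM with dox and 120.0 and 106.1 CPM without it, and the groups overlapped. Its log2 fold change was 0.12 (SE 0.11, 95% interval −0.11 to 0.36, edgeR adjusted p = 0.625), and without +dox replicate 1 it was 0.0095 (adjusted p = 0.974). Spry4 had 94.1 and 79.0 CPM with dox and 73.4 and 58.9 CPM without it, so every +dox library was above every −dox library. Its log2 fold change was 0.39 (SE 0.13, 95% interval 0.10 to 0.67), 0.36 within replicate 1 and 0.42 within replicate 2. It missed the threshold in edgeR (adjusted p = 0.133) and DESeq2 (adjusted p = 0.111). Without +dox replicate 2 Spry4 was called, at 0.51 (adjusted p = 0.00607), but without +dox replicate 1 it was at 0.26 (adjusted p = 0.305) and without −dox replicate 2 at 0.24 (adjusted p = 0.690).

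Etv4 had 96.9 and 130.7 CPM with dox and 82.1 and 87.9 CPM without it. Both +dox libraries were above both −dox libraries, and +dox replicate 2 was the highest by far. The log2 fold change was 0.42 (SE 0.13, 95% interval 0.13 to 0.71) with an edgeR adjusted p-value of 0.109 and a DESeq2 adjusted p-value of 0.0748. Without +dox replicate 1, the library highest in fibroblast markers, the log2 fold change was 0.62, and without +dox replicate 2 it was 0.19. Of the 4 feedback genes 3 had positive fold changes and 1, Dusp6, a negative one, with a median of 0.26.

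In CPM per kb without dox, the order of the 10 was Spry2 (54.3), Fgf4 (51.5), Etv4 (36.6), Dusp6 (28.8), Fgf8 (25.2), Fgfr1 (24.6), Fgf17 (18.2), Spry4 (14.4), Fgfr2 (9.35) and Fgf15 (6.51). The libraries of Spry2 and Fgf4, of Dusp6 and Fgf8, of Fgf8 and Fgfr1, and of Fgfr2 and Fgf15 overlapped, and the other neighbours in this order did not. With dox Fgf4 (61.1) and Spry2 (59.2) still led and Fgf8 (4.85) had moved to the last place.

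The rest of the pathway was read from 4 lists with 70 genes, of which 69 were tested. In edgeR 1 of the 69 was called lower, the ligand Fgf5, and 0 were called higher, against 0.519% and 0.0798% of all genes. At an unadjusted p-value under 0.05 in edgeR there were 25 (36.2%), 13 higher with dox and 12 lower. This compares with 17.8% of all genes tested and 23.3% of those averaging 1 CPM or more. DESeq2 called 3 other genes and not Fgf5 (adjusted p = 0.0112). The median log2 fold change of the 69 was −0.10.

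Fgf5, the FGF of the primed epiblast, had 12.7 and 5.69 CPM with dox and 36.9 and 35.3 CPM without it. Both +dox libraries were low, and they differed from each other more than the −dox libraries did. The mean fell from 36.1 ± 1.15 to 9.20 ± 4.96 CPM (SD, n = 2 each), a log2 fold change of −1.97 (SE 0.27, edgeR adjusted p = 0.00290). It was −1.53 within replicate 1 and −2.62 within replicate 2, and −2.67 when +dox replicate 1 was left out. Like Fgf8, it was not called without either −dox library or with adjusted deviances. Of the 18 other ligands 8 averaged 1 CPM or more, and after Fgf5 the most abundant were Fgf13 (log2 fold change −0.08, adjusted p = 0.844) and Fgf10 (−0.26, adjusted p = 0.648). Fgf7, named after its values were seen, is a mesenchymal ligand. It had 11.2 CPM in +dox replicate 1, the library highest in fibroblast markers, and 3.50 CPM in +dox replicate 2. In the −dox libraries it had 2.82 and 2.27 CPM (edgeR adjusted p = 0.0764).

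Among 10 other receptors, co-receptors and binding proteins, 0 were called by edgeR or DESeq2. In edgeR 4 (40%) had an unadjusted p-value under 0.05, 3 of them higher with dox and 1 lower. This compares with 17.8% of all genes and 23.3% of those averaging 1 CPM or more, as 8 of the 10 did. The most abundant were the FGF carrier Fgfbp1 (log2 fold change 0.48, adjusted p = 0.0807), the decoy-like receptor Fgfrl1 (−0.19, adjusted p = 0.608) and the membrane protein Flrt3 (−0.32, adjusted p = 0.339). Among 24 Ras-ERK transducers 0 were called by edgeR and DESeq2 called 2. In edgeR 9 (37.5%) had an unadjusted p-value under 0.05, 4 of them higher with dox and 5 lower. All 24 averaged 1 CPM or more, and of all such genes 23.3% were under 0.05 in edgeR. DESeq2 called 2.71% of the genes to which it gave an adjusted p-value. Among the abundant transducers were the MEK gene Map2k2 (log2 fold change 0.22, adjusted p = 0.208) and the adaptor gene Gab1 (0.26, adjusted p = 0.185). The DESeq2 calls were the Raf family gene Araf, at 221.9 and 222.7 CPM with dox and 168.1 and 148.9 CPM without it (0.49, DESeq2 adjusted p = 8.48e-04, edgeR adjusted p = 0.0216), and the ERK-activated kinase Rps6ka2 (−0.64, DESeq2 adjusted p = 0.00109, edgeR adjusted p = 0.0211). Both were named after their values were seen.

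Of 17 other feedback genes and ERK targets tested, 0 were called by edgeR and DESeq2 called 1. In edgeR 8 (47.1%) had an unadjusted p-value under 0.05, 3 of them higher with dox and 5 lower. All 17 averaged 1 CPM or more, where the share under 0.05 was 23.3%, and the DESeq2 share over all genes was 2.71%. The immediate early gene Egr1 was the most abundant, at 674.6 and 824.7 CPM with dox and 646.0 and 841.0 CPM without it (log2 fold change 0.01, adjusted p = 0.968). Etv5, the sister gene of Etv4, had a log2 fold change of 0.17 (adjusted p = 0.331), and Fos, another immediate early gene, had −0.43 (adjusted p = 0.192). The DESeq2 call was Il17rd, which encodes the FGF antagonist Sef, at −0.53 (DESeq2 adjusted p = 0.00592, edgeR adjusted p = 0.0322), also named after its values were seen.

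**Figure D3:**
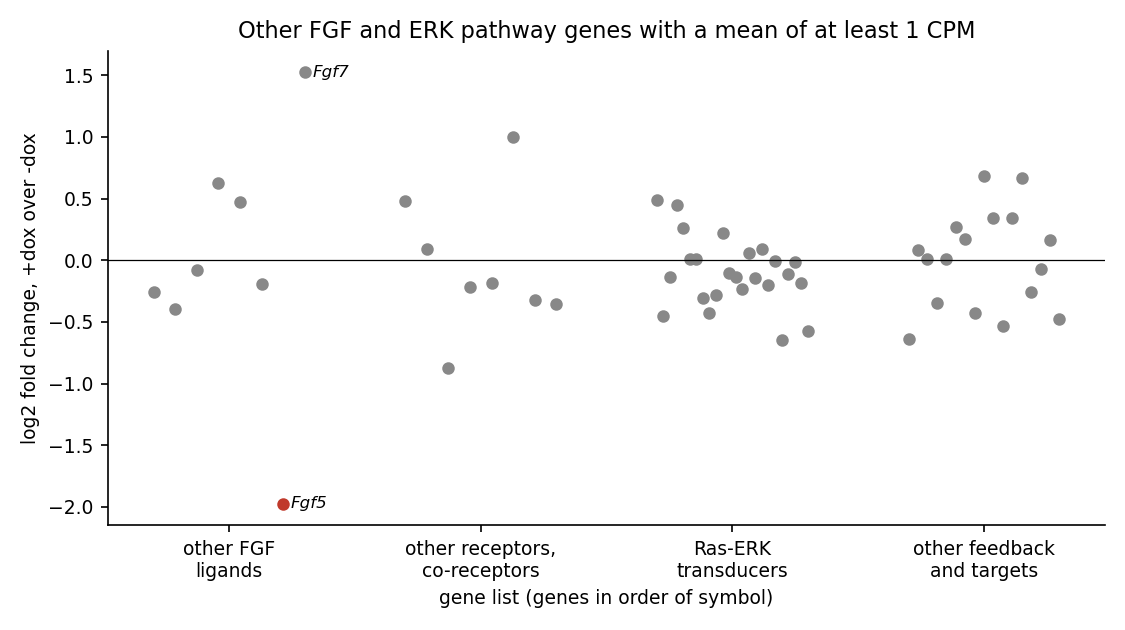
Log2 fold change with dox of the 57 other FGF and ERK pathway genes that averaged 1 CPM or more, by list, with the edgeR call in red. Fgf5 is the only red point (−1.97), Fgf7 is the highest (1.52, not called), and the transducers lie between −0.64 and 0.49.

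The genes around the ligands were read to see whether neighbours moved with them. Within 200 kb of the 4 ligands, 25 genes outside the set were tested and 0 were called by edgeR or DESeq2. Over all genes tested edgeR called 0.519% lower and 0.0798% higher. DESeq2 called 2.71% of the genes to which it gave an adjusted p-value. In a list of 25 genes, 0 calls therefore lay near the share over all genes. Of these 25 genes, 2 had an unadjusted p-value under 0.05 in edgeR, against 17.8% of all genes tested. Those 2 both averaged under 10 CPM and were named after their values were seen. They were Ano1 near Fgf4 (log2 fold change 0.96, edgeR adjusted p = 0.0475) and Phyhip near Fgf17 (−0.67, edgeR adjusted p = 0.188). The 17 that averaged 10 CPM or more lay between −0.28 and 0.44 in log2 fold change. Around Fgf8, 8 genes were tested, and 6 of them averaged 10 CPM or more. The nearest of these, Npm3, is a histone chaperone gene 8.81 kb away by midpoint. It lay at 18.7 and 19.7 CPM with dox and at 16.3 and 16.6 CPM without it (log2 fold change 0.22, 95% interval −0.12 to 0.57, adjusted p = 0.523). Mgea5, which encodes the enzyme that removes O-GlcNAc from proteins, is 26.9 kb away and had −0.17 (adjusted p = 0.448). Fbxw4, an F-box gene 120.6 kb away, had the most negative value of the 6, −0.28. The others were Poll (−0.14), Dpcd (−0.02) and 9130011E15Rik (0.15).

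Fgf4 and Fgf15 lie 35.4 kb apart on chromosome 7. Fgf3, another ligand gene, chosen after its values were seen, lies 22.3 kb upstream of Fgf4 and had 1.24 and 1.97 CPM with dox and 1.96 and 1.71 CPM without it. On the other side the cyclin D1 gene Ccnd1 had a log2 fold change of 0.13 (adjusted p = 0.617) and Oraov1 one of 0.24 (adjusted p = 0.534). Around Fgf17, 13 genes were tested, and the 9 that averaged 10 CPM or more had log2 fold changes from −0.07 (Xpo7) to 0.44 (Bmp1, adjusted p = 0.348).

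**Figure D4:**
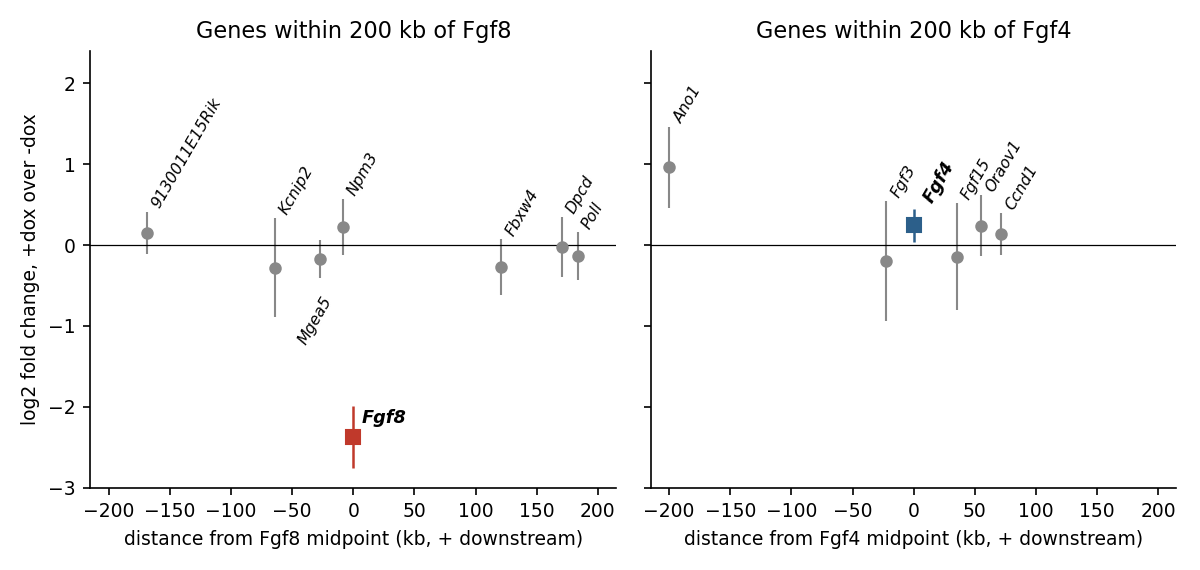
Log2 fold change with its 95% interval for genes averaging 1 CPM or more within 200 kb of Fgf8 (left) and Fgf4 (right), by the distance in kb between gene midpoints, with positive distances downstream of the ligand. The red square is Fgf8 at −2.38, the blue square is Fgf4 at 0.25, and the 6 neighbours of Fgf8 averaging 10 CPM or more lie between −0.28 and 0.22.

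The genes with the profile most like that of Fgf8 were found by the Euclidean distance between log2 CPM values of the 4 libraries, each centred on its mean, among 13910 genes. They were Grin1 (distance 0.154), which encodes an NMDA receptor subunit, Ndufa4l2 (0.315), Pkdcc (0.344), the histone gene Hist1h2ai (0.378) and the zinc transporter gene Slc39a8 (0.405). Their log2 fold changes were −2.53, −2.46, −2.06, −2.09 and −2.85. None of the other 9 genes of the set was among them. With 4 libraries in 2 groups, likeness here means mainly a fall of similar size.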

How the data were processed

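RNA-seq counts from 2 +dox and 2 −dox libraries were analysed, grouped by their labels. Per the methods, the authors used cutadapt for trimming, TopHat2 for alignment (mm9) and HOMER to count deduplicated unique exon reads, and they deposited raw counts per gene, in a table for each replicate. Tool versions and the use of strand in counting are not given in the sources used here. Rows of both tables were matched on gene symbol (547 genes have a different transcript in each, none of the 10). All genes with a read in any library (a minimum count of 1) entered TMM and edgeR 4.0.16's quasi-likelihood test with default settings (R 4.3.3), with Benjamini-Hochberg adjustment over 20044 genes. Intervals are 95% and unadjusted. Differences within a replicate use a prior count of 2. DESeq2 1.42.0 was the main alternative. The others were a replicate block, other scalings, filterByExpr, the likelihood ratio test, adjusted deviances, a threshold of 0.05 and leaving out each library.

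The members, gene lists and settings were chosen with earlier results of these data known. Genes named outside the members were those called in a list, the 3 most abundant of each list, neighbours with a mean of at least 10 CPM (given by range around Fgf17) and the 5 profiles nearest to Fgf8, and any other gene is marked. An item that this rule names is not reported here. Exon overlaps were read from the GENCODE annotation of NCBIM37, and promoters from RefSeq. ChIP-seq and Hi-C data were not analysed here.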

Additional observations from a re-analysis of the deposited data

How the results depend on the processing

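With 120 genes called over all genes, other settings gave 375 (DESeq2), 457 (likelihood ratio test), 573 (threshold 0.05), 11 (filterByExpr) and 0 (adjusted deviances, with 3254 genes at an unadjusted p-value under 0.05), and leaving out 1 library gave 0 to 992. DESeq2's size factors gave 136 and total counts 104. Members called stayed at 1, Fgf8, except 0 with adjusted deviances (log2 fold change −2.38) and 0 to 3 with a library left out, where Fgf8 ranged from −2.45 to −2.31. Without −dox replicate 1 or −dox replicate 2, edgeR called 0 genes (1753 and 1450 at an unadjusted p-value under 0.05). A lone library was assumed to vary like the other group, and the cause was not tested. Calls in the other ligands (1) became 0 with DESeq2, filterByExpr and adjusted deviances and 0 to 2 with a library left out. Calls in the receptors (0) became 0 to 2 with a library left out. Those in the transducers (0) became 2 with DESeq2, 2 with the likelihood ratio test, 4 at 0.05 and 0 to 3 with a library left out. Those in the other feedback genes (0) became 1 with DESeq2, the likelihood ratio test and 0.05, and 0 to 4. Those in the neighbours (0) became 1 at 0.05 and 0 to 2.

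The replicate numbers are no stated batch (correlation of same-numbered deviations 0.196 over 13911 genes). With the replicate block 786 genes were called by edgeR and 264 by DESeq2. Members stayed at 1, other ligands were 2 in edgeR, and receptors were 1 in edgeR and 0 in DESeq2. Transducers were 4 in edgeR and 2 in DESeq2, other feedback genes 4 and 3, and neighbours 1 in edgeR.

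Of 130 values of members under alternatives, 115 kept direction and side of the threshold. The 9 that changed sign came from leaving out a library, with ranges of −0.56 to 0.45 for Fgf15 (also 0.16), −0.10 to 0.42 for Fgf17, −0.018 to 0.0065 for Fgfr1 (also 0.0015), −0.15 to 0.49 for Fgfr2 (also −0.09) and −0.51 to 0.25 for Dusp6 (also 0.11). Fgf8 rests on 118 to 893 reads a library.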

Other observations

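Members of the set also differed by replicate number. In 7 of the 10 genes replicate 1 was above replicate 2 in both groups, and in 2 it was below in both, against 25.7% and 24.8% of all genes tested. Dusp6 was at 95.9 and 90.1 CPM in the replicate 1 libraries and at 56.6 and 70.7 CPM in the replicate 2 libraries. Of the 17 other feedback genes and ERK targets tested, replicate 1 was above replicate 2 in both groups in 8 (47.1%) and below in 4 (23.5%). Dusp4 and Dusp9, phosphatases related to Dusp6 and chosen after their values were seen, went opposite ways. Dusp4 had 80.1 and 118.6 CPM in replicate 1 and 45.7 and 77.1 CPM in replicate 2. Dusp9 had 147.6 and 193.5 CPM in replicate 1 and 197.0 and 243.7 CPM in replicate 2. What the replicate numbers stand for is not given in the labels.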
